A study of Mus musculus with 20 samples.

Results

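The genes described here are 10 markers of thermogenic fat, measured with expression arrays in whole epididymal fat pads of mice: Ucp1, Cidea, Ppargc1a, Ppargc1b, Dio2, Elovl3, Prdm16, Cox7a1, Cox8b and Otop1. They were chosen by gene symbol and not by a rule on their values, but with earlier results of these data known. They are 10 of the 19505 genes that the array annotation names. Each of the 10 had 1 probe set among 22206, so all of them were measured. The tested mice, called cre, numbered 10. They carried a Tnf gene flanked by loxP sites on both copies (TNF-αFlox/Flox), 1 copy of the LyzM-Cre transgene (LyzMcre+/-) and the C57BL/6 background. Their 10 littermates, called wt, carried the same floxed Tnf and no Cre (LyzMcre-/-). The LyzM promoter drives Cre in macrophages and other myeloid cells, so the deletion of Tnf, which encodes the inflammatory cytokine TNF-α, was not aimed at adipocytes. All mice were males of 28 weeks raised on chow to 10 weeks of age, after which they ate a high-fat diet (40% of calories from fat) for 18 weeks. Each mouse gave 1 array, and each of 2 batches held 5 cre and 5 wt mice. Epididymal fat is a white depot, and the comparison asks whether these genes differed when macrophages lacked TNF-α.

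Brown and beige adipocytes burn fuel to make heat. UCP1, in the inner mitochondrial membrane, lets protons return without making ATP, and noradrenaline from sympathetic nerves induces its gene through beta-adrenergic receptors and cAMP. PRDM16 directs precursors towards this fate, PGC-1α and PGC-1β drive the making of mitochondria, and the remaining genes serve lipid storage, fatty acid elongation, thyroid hormone activation, respiration and proton transport. Visceral white depots such as the epididymal pad of mice turn beige far less readily than subcutaneous depots.

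In RefSeq's mm10 assembly, GRCm38.p6, Ucp1 lies on chromosome 8 from 83290348 to 83298456. Ppargc1a spans 51454249 to 52115853 on chromosome 5, which also holds Otop1 from 38277404 to 38304217. Dio2 lies on chromosome 12 from 90724552 to 90739038, Elovl3 on chromosome 19 from 46131897 to 46135694, and Prdm16 on chromosome 4 from 154316122 to 154637360. Cox7a1, from 30184171 to 30186030, and Cox8b, from 140898942 to 140900446, share chromosome 7.

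Since beta-adrenergic signals reach thermogenic genes through cAMP, the 250 bases before the start in RefSeq's promoter table are shown for the 3 of 7 members examined that held TGACG, the core of the cAMP response element, on either strand. Capitals mark this motif, read as CGTCA on the other strand, and the TATA box TATAAA. The Ucp1 window is chr8:83290098-83290347 on the plus strand, the Ppargc1a window is chr5:51567726-51567975 on the minus strand, inside the annotated span of that gene, and the Dio2 window is chr12:90739039-90739288 on the minus strand.
Ucp1: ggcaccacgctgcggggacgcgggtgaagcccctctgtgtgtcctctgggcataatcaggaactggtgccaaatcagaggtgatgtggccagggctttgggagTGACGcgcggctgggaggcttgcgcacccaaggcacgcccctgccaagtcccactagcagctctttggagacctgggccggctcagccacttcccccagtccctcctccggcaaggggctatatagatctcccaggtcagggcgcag
Ppargc1a: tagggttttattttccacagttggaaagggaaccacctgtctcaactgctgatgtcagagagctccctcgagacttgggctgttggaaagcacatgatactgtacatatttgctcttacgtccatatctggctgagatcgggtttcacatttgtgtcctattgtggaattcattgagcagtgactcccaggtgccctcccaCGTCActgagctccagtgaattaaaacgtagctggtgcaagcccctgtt
Dio2: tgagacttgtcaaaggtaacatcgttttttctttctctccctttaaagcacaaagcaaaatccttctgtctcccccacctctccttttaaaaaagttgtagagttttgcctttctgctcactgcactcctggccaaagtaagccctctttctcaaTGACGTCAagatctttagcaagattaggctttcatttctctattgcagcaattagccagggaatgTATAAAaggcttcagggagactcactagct
The Ucp1 window held TGACG once, with its first base 147 bases before the start. The Ppargc1a window held it once on the other strand, 49 bases before the start. In Dio2 the cores of both strands overlapped to form the full element TGACGTCA, 95 bases before the start, and TATAAA began 30 bases before it. Across 32851 promoter windows of this length, 17.8% held TGACG, 1.55% held TGACGTCA and 12.4% held TATAAA on either strand. The GC box GGGCGG, present in 32.7% of all windows, was found in Prdm16 and Otop1. The nuclear receptor motif AAGGTCA, present in 4.08%, was found in none of the 7 windows.

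The deleted gene was measured first. Tnf averaged 4.67 ± 0.43 log2 signal in cre mice and 6.66 ± 0.69 in wt mice (SD, n = 10 each), a difference of -1.99 (SE 0.24, limma adjusted p = 0.000822). It ranged between 3.91 and 5.34 in cre mice and between 5.78 and 7.80 in wt mice, with no overlap. Adipoq, the adipocyte hormone adiponectin, was abundant throughout, at 19.1 ± 0.36 log2 signal in cre mice and 18.7 ± 0.69 in wt mice. Array medians lay between 6.49 and 6.58 and correlations between arrays between 0.934 and 0.989. Several arrays carried genes of other tissues or little adipocyte signal. The mean of 10 seminal vesicle and prostate genes was 14.3 in wt replicate 6, against at most 6.66 in cre mice. The mean of 14 liver genes was 13.8 in wt replicate 4, against at most 11.7 in cre mice. The mean of 12 mature adipocyte genes lay between 15.8 and 16.9 in cre mice, whereas wt replicates 5 and 6 were at 14.7 and 14.2. In cre replicate 2, genes of bladder lining were high, as given below with its Ucp1 value. The residual SD of Ucp1 in the limma fit, 1.91, exceeded that of 99.7% of probe sets, and the SDs of Cox8b, Otop1, Elovl3 and Cidea exceeded those of 90.2% to 95.2%. In whole tissue, fewer cells of a type and less RNA per cell cannot be told apart.

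None of the 10 genes passed adjustment over all 22206 probe sets in limma, where 0.0045% of probe sets did, namely 1, Tnf. Without adjustment, 1 of the 10, Ppargc1a, had a p under 0.05, against 6.29% of all probe sets (3.24% higher and 3.05% lower in cre mice). It was also the member that met the rule by which the study selected genes, a fold of at least 1.5 beside an unadjusted p under 0.05, as did 1.04% of all probe sets (0.383% higher in cre mice). The values of the genotypes overlapped for all 10 genes, while 0.00901% of all probe sets did not overlap. Mean signals were higher in cre mice for 9 of the 10 genes, against 10045 of all 19505 genes. Medians of the 10 were higher for 5 and lower for 5. Single mice weigh on several members at a time, so these directions are not independent. The median of the 10 mean differences was 0.29 on the log2 scale, against 0.01 over all genes. Without cre replicate 2, 7 of the 10 means were higher in cre mice.

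**Figure D1:**
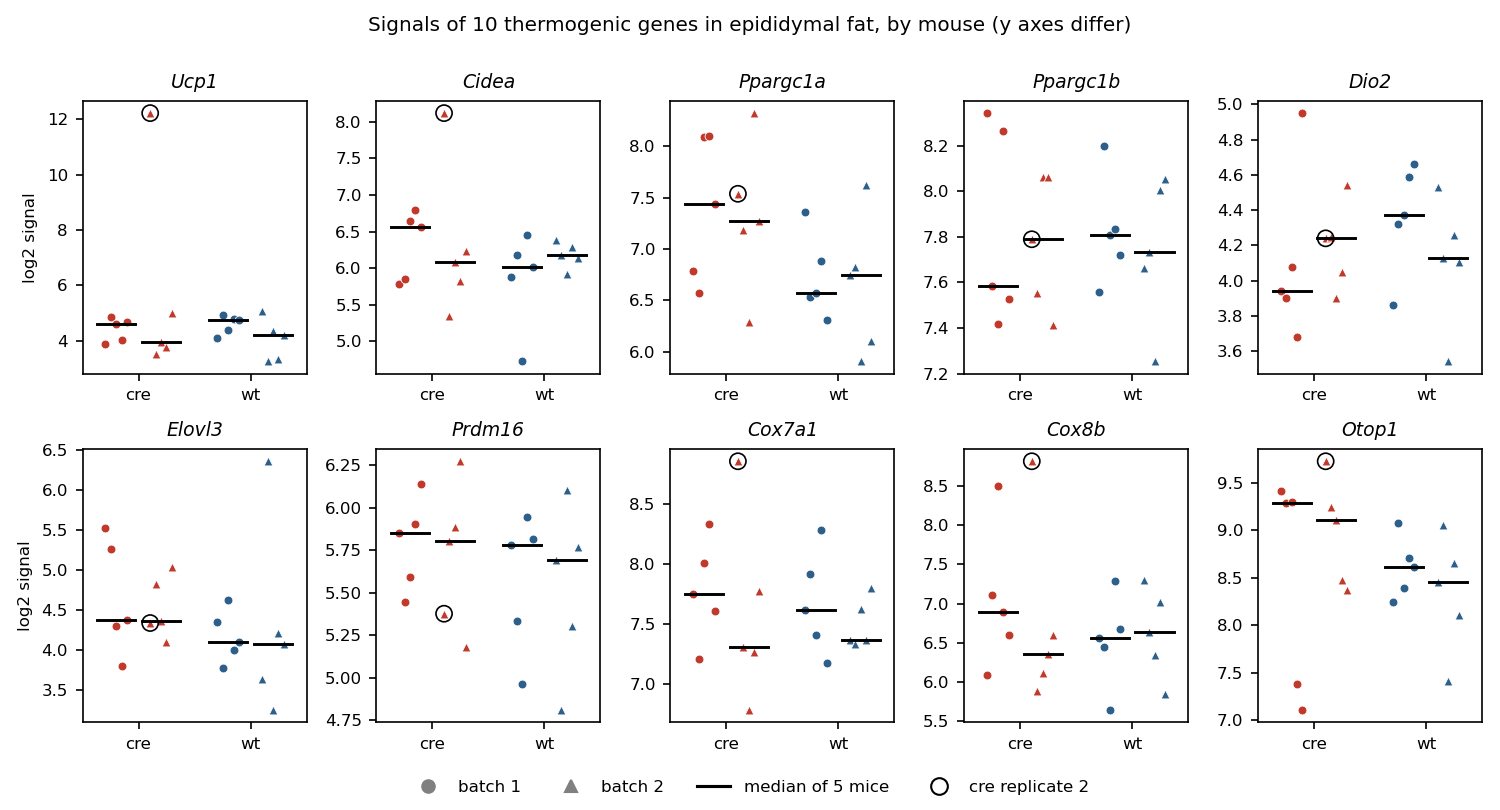
Log2 signal of each thermogenic gene in every mouse, with cre left of wt in each panel, circles for batch 1, triangles for batch 2 and bars at the median of 5 mice; y axes differ between panels. The ringed mouse, cre replicate 2, is highest for Ucp1, Cidea, Cox7a1, Cox8b and Otop1, and its Ucp1 signal of 12.2 stands apart from all others, none above 5.06.

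Ucp1 was near the bottom of its range in all mice but one. In batch 1, its log2 signals were 3.89, 4.86, 4.61, 4.03 and 4.66 in cre mice and 4.10, 4.94, 4.41, 4.80 and 4.76 in wt mice. In batch 2 they were 12.22, 3.52, 3.96, 3.78 and 4.99 in cre mice and 5.06, 3.26, 4.37, 3.36 and 4.20 in wt mice. The value of 12.22 belongs to cre replicate 2, and the other 19 mice of both genotypes overlapped fully. As a ratio of array signals, it was 143 times the next mouse and 231 times the median of the other 19, whose low signals set these ratios. Signals this low in the other 19 can hold background, and no detection call was used, so whether Ucp1 was expressed in them was not measured.

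The mean difference of Ucp1 rested on that animal. It was 5.05 ± 2.57 log2 signal in cre mice and 4.32 ± 0.62 in wt mice (SD, n = 10 each), a difference of 0.73 (SE 0.76, 95% interval -0.84 to 2.30, limma adjusted p = 0.882). Without cre replicate 2, cre mice averaged 4.26 ± 0.53 (SD, n = 9) and the difference was -0.09 (95% interval -0.58 to 0.39). Medians were 4.32 in cre and 4.39 in wt mice, and 5 of the 10 cre mice lay above the wt median. The medians differed by -0.14 in batch 1 and by -0.23 in batch 2. The exact permutation test of ranks within batches gave a two-sided p of 0.828.

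In cre replicate 2, 9 probe sets exceeded all 19 other mice by more than 1 log2 unit, and Ucp1 led them. The same count ran from 0 to 428 in the other mice, with 428 in wt replicate 6, 238 in wt replicate 1 and 148 in wt replicate 4. Genes of the brown fat programme and of epithelium were among the 9. Cidea, Fabp3, the fatty acid carrier of heart and brown fat, and Cpt1b, the muscle and brown fat enzyme that admits fatty acids to mitochondria, belong to the brown fat programme. Fabp3 was at 10.7 in this mouse, against at most 9.05 in the others, and Cpt1b was at 8.06, against at most 6.69. Upk1a, a uroplakin of the bladder lining, was at 8.67, against at most 5.67. Krt7, a keratin of simple epithelia, Psca, a surface protein of bladder and prostate epithelium, and Sprr1a, a protein of stressed squamous epithelium, were also among the 9, with 9.53, 6.32 and 6.81. The last was Sptssb, a subunit of the enzyme that starts sphingolipid synthesis, at 7.21 against at most 4.14.

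**Figure D2:**
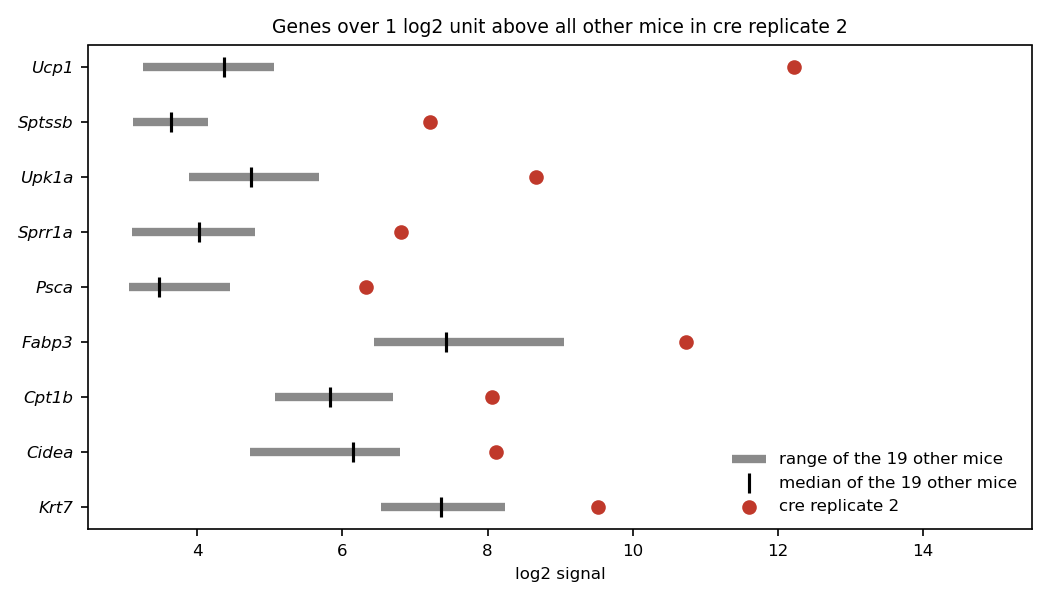
Log2 signal of the 9 genes that lay more than 1 log2 unit above all other mice in cre replicate 2 (red points), with the range (grey bars) and median (black ticks) of the 19 other mice. Ucp1 has the widest gap, 7.16 log2 units, and the other gaps lie between 1.29 and 3.07.

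Other markers divided in this mouse. Of 22 further brown and beige markers, 4 were highest in it: Cpt1b, Fabp3, Letmd1, a mitochondrial protein needed for brown fat heat production, and Pank1, an enzyme of coenzyme A synthesis. Cpt1b and Fabp3 were also among the 9 genes picked above. The mean of these 22 genes was 7.73 in cre replicate 2, against 6.86 to 7.64 in the other mice. Acot11, Mpzl2 and P2rx5 had rank 2 in this mouse, and Acot2 and Slc36a2 rank 4. Low in cre replicate 2 were Plin5, at rank 18 of the 20 mice, and Slc27a2, Mtus1 and Tbx1, at rank 17. Zic1 and Lhx8, factors of classical brown fat, were at 5.15 and 6.68, rank 3 of the 20 mice for both. Among genes often used as beige markers, Tmem26 was at 7.20, Tbx1 at 4.01, Cited1 at 3.58 and Tnfrsf9 at 6.30, all within the range of the other mice. Of 10 genes of the bladder lining, a list written after the values were seen, 8 were highest in this mouse. The mean of the 10 was 6.74, against 4.48 to 5.44 in the others. The list includes Upk1a, Krt7, Psca and Sprr1a, already picked above for their gaps in this mouse, so the count and the mean partly repeat that selection. Upk1b and Upk2 of that list had rank 2. Skeletal muscle genes had a mean of 6.12 in this mouse, within the range of 5.83 to 7.20 of the others, and 0 of 13 were highest in it. The mean of 3 Schwann cell genes was 5.87, above the 4.81 to 5.56 of the others. Only S100b of the 3 was highest in this mouse, at 6.06 against at most 5.22. Sox10 had rank 4 and Mbp rank 10. Sympathetic nerve genes had a mean of 5.24, within the 4.86 to 5.54 of the others. The mean of mature adipocyte genes, 16.1, lay within the range of the others, 14.2 to 16.9. The part of bladder tissue, nerve or brown fat in this array was not tested. Its Tnf signal, 4.53, was in the range of the cre mice.

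Cre replicate 2 was highest of all 20 mice for 5 of the 10 members, Ucp1, Cidea, Cox7a1, Cox8b and Otop1, while it was highest for 3.29% of all probe sets. It had rank 5 for Ppargc1a, rank 10 for Ppargc1b, Dio2 and Elovl3, and rank 15 for Prdm16. The rest of the members had their highest values in 4 mice: cre replicate 8 for 2 of them, and cre replicates 1 and 9 and wt replicate 4 for 1 each. The lowest values fell in wt replicate 6 for 4 members, wt replicates 4 and 5 for 2 each, and cre replicates 6 and 9 for 1 each.

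Among all members, Ppargc1a, which encodes the coactivator PGC-1α, had the smallest p by rank. Its log2 signals in batch 1 were 6.78, 6.57, 8.10, 8.10 and 7.44 in cre mice and 7.36, 6.53, 6.58, 6.88 and 6.31 in wt mice. In batch 2 they were 7.54, 7.19, 6.29, 8.32 and 7.28 in cre mice and 6.75, 6.83, 5.91, 7.62 and 6.11 in wt mice. The highest cre mice exceeded all wt mice, the lowest cre mice lay inside the wt range, and 8 of 10 cre mice were above the wt median. Means were 7.36 ± 0.68 log2 signal in cre mice and 6.69 ± 0.53 in wt mice (SD, n = 10 each).

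The Ppargc1a difference was 0.67 on the log2 scale (SE 0.26, 95% interval 0.14 to 1.21, limma unadjusted p = 0.0165, adjusted p = 0.77), so it failed adjustment over all probe sets. The batches gave 0.66 (batch 1) and 0.68 (batch 2), with median differences of 0.87 and 0.53. The exact rank test gave a two-sided p of 0.0441, where 5.24% of all probe sets had a p under 0.05. Within a single batch the exact rank p was 0.151 in batch 1 and 0.222 in batch 2, where 5 against 5 mice allow no p below 0.00794. The difference was 0.65 without cre replicate 2, and without cre replicate 8, the highest cre mouse, it was 0.55, under the 1.5-fold of the selection. Without wt replicates 5 and 6, whose adipocyte gene means were lowest, the unadjusted p was 0.0505. Without cre replicate 2 and wt replicates 4 and 6, left out for their genes of other tissues, the difference was 0.57 (limma unadjusted p = 0.0576). That fit kept cre replicates 1, 3, 4 and 10 and wt replicate 9, whose liver means lay between 10.5 and 11.7. With the adipocyte mean as a covariate the difference was 0.58 (unadjusted p = 0.0334).

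Ppargc1b (chromosome 18, 61291445 to 61400756), which encodes the related coactivator PGC-1β, had means of 7.80 ± 0.35 log2 signal in cre mice and 7.78 ± 0.27 in wt mice. The difference was 0.02 (95% interval -0.29 to 0.33), with 5 of 10 cre mice above the wt median, and its exact rank p was 0.942. Prdm16 ranged between 5.18 and 6.27 in cre mice and between 4.81 and 6.11 in wt mice. Its median was 5.83 in cre mice and 5.73 in wt mice, and the difference of 0.19 (95% interval -0.17 to 0.56) did not pass the test (limma adjusted p = 0.869). The 2 wt mice with the lowest Prdm16, replicates 4 and 5 at 4.81 and 4.96, are mice named above for liver genes and for low adipocyte genes, while wt replicate 6, lowest in adipocyte genes, had the highest wt value, 6.11. Without wt replicate 4 the Prdm16 difference was 0.11, without wt replicate 5 it was 0.12 and without cre replicate 8 it was 0.13. Differences of these 2 regulators were smaller than their spread between mice.

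Dio2, the enzyme that turns thyroxine into its active form inside the cell, was the member with a lower mean in cre mice. It ranged between 3.68 and 4.95 log2 signal in cre mice and between 3.54 and 4.66 in wt mice, and the mean difference was -0.08 (95% interval -0.42 to 0.25, limma adjusted p = 0.94). In cre mice of batch 1, 4 of 5 values lay between 3.68 and 4.07 and the fifth was 4.95. Medians differed by -0.43 in batch 1 and by 0.11 in batch 2, and 2 of 10 cre mice exceeded the wt median. The exact rank p was 0.613. When each mouse was left out, the mean difference ran between -0.17, without cre replicate 9, and -0.02, without cre replicate 7.

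Cidea (chromosome 18, 67343564 to 67367794), a lipid droplet protein typical of brown and beige adipocytes, had log2 signals of 5.78, 5.85, 6.64, 6.79 and 6.56 in cre mice of batch 1, against 5.88, 6.17, 4.72, 6.46 and 6.02 in wt mice. In batch 2 it had 8.12, 5.34, 6.08, 5.82 and 6.23 in cre mice, against 6.38, 6.18, 5.91, 6.28 and 6.14 in wt mice. The high value was again cre replicate 2 and the low one wt replicate 5. Medians were 6.16 in both genotypes, differing by 0.55 in batch 1 and by -0.10 in batch 2. The mean difference was 0.31 (95% interval -0.26 to 0.87, limma adjusted p = 0.863) with all mice, 0.11 without cre replicate 2 and 0.16 without wt replicate 5. After centring, Cidea and the mean of mature adipocyte genes had a Pearson r of 0.38 (permutation adjusted p = 0.0737) and a rho of 0.44 (permutation adjusted p = 0.0694) over 20 mice. Without wt replicates 5 and 6, the farthest from the median of that mean, r was 0.12, and within batches it reached 0.86 (batch 1) and 0.05 (batch 2).

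Elovl3 elongates very long fatty acids, is induced by cold in brown fat and is also expressed in mouse liver. Its log2 signals were 5.52, 5.26, 4.30, 3.81 and 4.38 in cre mice of batch 1, against 4.35, 3.77, 4.62, 4.003 and 4.10 in wt mice. In batch 2 they were 4.34, 4.82, 4.36, 4.10 and 5.04 in cre mice, against 3.64, 6.36, 3.26, 4.21 and 4.07 in wt mice. Although 9 of 10 cre mice exceeded the wt median, the highest value of all, 6.36, was that of wt replicate 4. Medians differed by 0.28 in batch 1 and by 0.29 in batch 2, with an exact rank p of 0.0894. The mean difference was 0.36 (SE 0.30, limma adjusted p = 0.853). Leaving out wt replicate 4 gave 0.60 (unadjusted p = 0.0091, adjusted p = 0.618).

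Liver genes moved with Elovl3. The mean of 14 liver genes ranged between 6.94 and 11.7 in cre mice, with a median of 9.62, and between 6.11 and 13.8 in wt mice, with a median of 7.69. All 14 had a higher mean in cre mice, by a median of 1.12 on the log2 scale, and 1 of them, albumin (Alb), had an unadjusted p under 0.05 (difference 2.55, SE 1.18, p = 0.0418, limma adjusted p = 0.785). After centring on genotype and batch, Elovl3 and the liver mean had a Pearson r of 0.80 over 20 mice (permutation p = 0.00093, adjusted p = 0.00465) and a Spearman rho of 0.72 (permutation p = 0.00056, adjusted p = 0.0028). Without wt replicates 4 and 9, the farthest from the median of the liver mean after centring, r was 0.66. Within batches it reached 0.44 (batch 1) and 0.93 (batch 2). This was 1 of 5 relations between a member and a cell type list, all picked after the values were seen. The part of liver RNA in the Elovl3 signal was not tested.

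**Figure D3:**
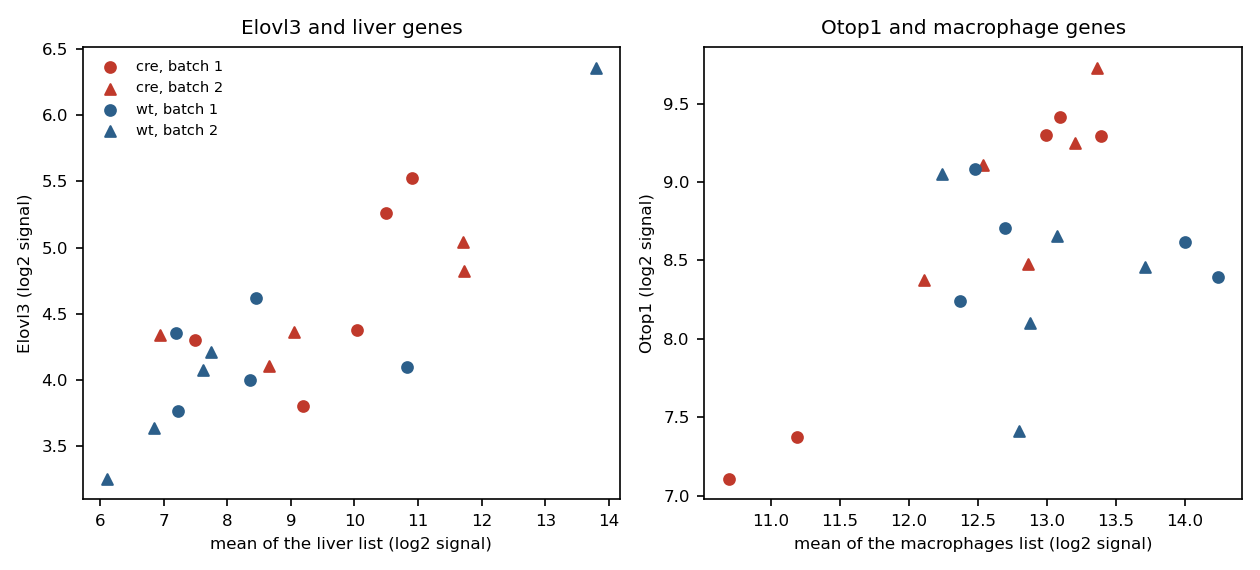
Elovl3 against the mean of 14 liver genes (left) and Otop1 against the mean of 13 macrophage genes (right), in log2 signal for each mouse, with cre in red, wt in blue, circles for batch 1 and triangles for batch 2. The highest Elovl3 value, 6.36, is in the mouse with the highest liver mean, 13.8, and both lowest Otop1 values, 7.11 and 7.38, are in the cre mice with the lowest macrophage means, 10.7 and 11.2. The lowest wt Otop1 value, 7.41, is in a mouse with a macrophage mean of 12.8.

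Cox7a1 and Cox8b encode the heart and muscle forms of 2 subunits of cytochrome c oxidase, the last complex of the respiratory chain, and both are abundant in brown fat. Cox7a1 ranged between 6.79 and 8.85 log2 signal in cre mice and between 7.17 and 8.28 in wt mice. Its mean difference was 0.10 (95% interval -0.33 to 0.54) with all mice, -0.05 without cre replicate 2 and 0.20 without cre replicate 6. Cox8b ranged between 5.89 and 8.81 in cre mice and between 5.65 and 7.30 in wt mice. The cre replicates 2 and 5, at 8.81 and 8.49, exceeded all wt mice, while the median was 6.60 in cre mice and 6.61 in wt mice. The mean difference of Cox8b was 0.31 (95% interval -0.38 to 1.01) with all mice, 0.08 without cre replicate 2, 0.13 without cre replicate 5 and 0.20 without wt replicate 5. Its medians differed by 0.32 in batch 1 and by -0.29 in batch 2, and the exact rank p was 0.718, against 0.942 for Cox7a1. Both genes are also muscle genes, and after centring they had Pearson r of 0.25 (Cox7a1) and 0.21 (Cox8b) with the skeletal muscle mean (20 mice, permutation adjusted p = 0.372 for both), with rho of 0.27 and 0.14 (permutation adjusted p = 0.385 and 0.574).

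Otop1 encodes otopetrin 1, a proton channel whose gene marks brown fat. Its log2 signals in batch 1 were 9.41, 9.29, 9.30, 7.38 and 7.11 in cre mice and 8.24, 9.08, 8.39, 8.70 and 8.62 in wt mice. In batch 2 they were 9.73, 9.25, 9.11, 8.48 and 8.38 in cre mice and 8.46, 9.05, 7.41, 8.65 and 8.10 in wt mice. A total of 6 cre mice exceeded every wt mouse, and cre replicates 7 and 9 lay below all of them. The median was 0.64 higher in cre mice over both batches (0.67 in batch 1, 0.65 in batch 2), next to 0.70 for Ppargc1a, and the exact rank p was 0.164. The mean difference was -0.11 in batch 1, 0.65 in batch 2 and 0.27 over all mice (95% interval -0.35 to 0.89, limma adjusted p = 0.889). It was 0.14 without wt replicate 6, 0.16 without cre replicate 2, 0.42 without cre replicate 7 and 0.46 without cre replicate 9.

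Otop1 was also set against macrophage genes. The same 2 mice, cre replicates 7 and 9, had the lowest means of 13 macrophage genes, 11.2 and 10.7, against 12.1 to 13.4 in the other cre mice and 12.2 to 14.2 in wt mice. The median mouse was at 12.9 in cre and 12.8 in wt mice. By mean, all 13 genes were lower in cre mice, by a median of 0.39 on the log2 scale, and 2 had an unadjusted p under 0.05, the signalling adaptors Fcer1g (difference -1.25, limma adjusted p = 0.781) and Tyrobp (difference -0.80, limma adjusted p = 0.789). After centring, Otop1 and the macrophage mean had a Pearson r of 0.61 (permutation adjusted p = 0.0737) and a rho of 0.57 (permutation adjusted p = 0.0694) over 20 mice. Without cre replicates 3 and 9, the farthest from the median of that mean after centring, r was 0.42. Within batches it reached 0.73 (batch 1) and 0.27 (batch 2). Among wt mice, replicates 5, 9 and 2 had the highest macrophage means, 14.2, 14.0 and 13.7, with Otop1 at 8.39, 8.62 and 8.46. Wt replicate 4, with the lowest wt macrophage mean, 12.2, had Otop1 at 9.05. The lowest wt Otop1 value, 7.41 in replicate 6, went with a macrophage mean of 12.8. The relation was not computed within each genotype. The part of macrophage content in the Otop1 values was not tested.

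**Figure D4:**
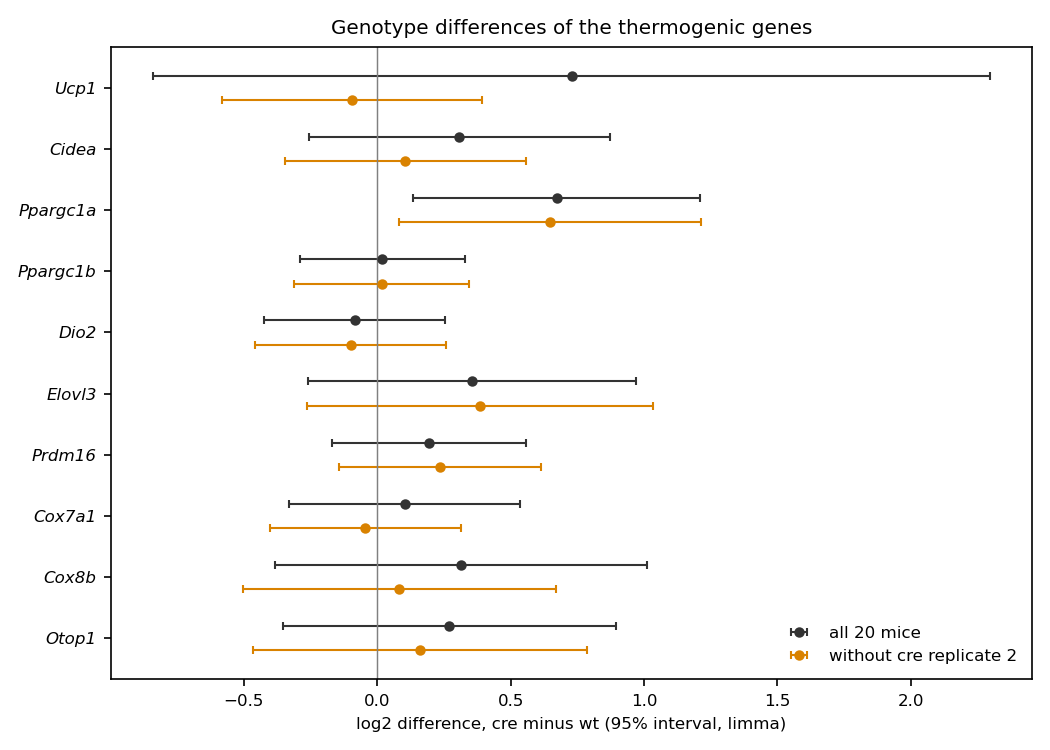
Difference of mean log2 signal, cre minus wt, for each thermogenic gene with its 95% interval from limma, over all 20 mice (dark) and without cre replicate 2 (orange). For Ucp1 the difference is 0.73 over all mice and -0.09 without that mouse, and Ppargc1a is the gene whose interval leaves out 0 in both fits.

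The genotype difference was also compared between batches. None of the 10 genes had an interaction of genotype and batch with an unadjusted p under 0.05 in limma, against 7.41% of all probe sets. The largest interactions were 1.83 for Ucp1, with differences of -0.19 in batch 1 and 1.65 in batch 2 (interaction adjusted p = 0.807), and 0.76 for Otop1 (adjusted p = 0.798). For Ppargc1a it was 0.02 (adjusted p = 0.996). None of the 10 genes differed between the batches themselves at an unadjusted p under 0.05, as 0.572% of all probe sets did. Whether the deposited signals had been adjusted for batch is not given. Such an adjustment would remove these differences, so this comparison cannot tell whether the batches differed.

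Across mice, the members did not vary as 1 block. After centring on genotype and batch, the rank correlations of pairs of members over 20 mice ran between -0.56, for Elovl3 with Prdm16, and 0.73, for Cidea with Cox8b. Cidea also went with Cox7a1 (rho 0.62) and Ppargc1a (0.44), and Ppargc1a with Cox8b (0.46). Prdm16 and Otop1 ran in opposite directions (-0.54), as did Cidea and Elovl3 (-0.44). These pairs were picked after the values were seen, and pairs without Ucp1 were not tested. Of 9 relations of Ucp1 with the other members, none passed adjustment by permutation. The strongest was with Cidea, with a Pearson r of 0.77 (permutation p = 0.0154, adjusted p = 0.0747) and a rho of 0.53 (permutation p = 0.0387, adjusted p = 0.174). It was followed by Cox8b, with an r of 0.72 (permutation p = 0.0166, adjusted p = 0.0747) and a rho of 0.51 (permutation p = 0.0326, adjusted p = 0.174). After centring, cre replicates 2 and 4 were the farthest from the median of Ucp1, and without them r was 0.22 for Cidea and 0.30 for Cox8b. Cre replicate 2 raised the Ucp1 mean of cre mice in batch 2 to 5.7. Centring on that mean set cre replicate 4 far off. Its own signal, 3.52, was above the 3.26 and 3.36 of wt replicates 4 and 8. In batch 1, which does not hold cre replicates 2 and 4, r was 0.27 for Cidea and 0.46 for Cox8b. Cre replicate 2 was not left out alone.

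The genes whose ranks most resembled those of a member were named over the 20 mice after the same centring. For Ppargc1a they were Nat2 (rho 0.86), Coa6 (0.85), an assembly factor of cytochrome c oxidase, Acyp2 (0.83), Dnajc4 (0.82) and Mtif3 (0.81), a mitochondrial translation initiation factor. Of these, Mtif3 had an unadjusted p under 0.05 between genotypes (difference 0.37, limma adjusted p = 0.785). For Cox7a1 they were Ankrd36 (0.83), Actl10 (0.76), D16Ertd472e (0.74), Fam205c (0.74) and Trim30e-ps1 (0.74). For Ucp1 they were Cdkl1 (0.78), Lce1h (0.74), Akap8 (0.74), Csn1s2a (0.72) and Sptssb (0.71). Only Sptssb of these is among the 9 genes that stood out in cre replicate 2. The genes in these lists were picked for the highest rho among all named genes, leaving out predicted genes and clones. Among so many genes high values can arise by chance, and no chance level was computed. The ranks of Ucp1 also rest mostly on low signals, which can hold background. They were taken after centring, and cre replicate 2 raised the Ucp1 mean of cre mice in batch 2 to 5.7. All other cre mice of that batch lay below this mean, so this 1 mouse lowered their ranks in the Ucp1 relations. Neither these rho nor shared regulation with a member was tested.

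The pathways around these genes showed no call after adjustment. Beside the counts that follow, 10045 of all 19505 genes were higher and 9460 lower in cre mice by mean. Of 8 measured genes of beta-adrenergic signalling, 6 were higher and 2 lower in cre mice by mean, with 0 at an unadjusted p under 0.05 in limma. Of 17 transcriptional activators of the brown programme, 10 were higher and 7 lower, and 1 reached an unadjusted p under 0.05. That was Tfam, a factor that binds mitochondrial DNA and takes part in its transcription. It was at 7.95 ± 0.35 log2 signal in cre mice and 8.26 ± 0.26 in wt mice (difference -0.31, p = 0.0441, limma adjusted p = 0.785). Of 7 repressors, 3 were higher and 4 lower, with 0 at that threshold. Medians of the 3 lists were 0.08, 0.09 and -0.07 on the log2 scale, against 0.01 over all genes.

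Among 22 other brown and beige markers, 13 were higher and 9 lower in cre mice, and Pank1 reached an unadjusted p under 0.05, at 7.09 ± 0.26 log2 signal in cre mice and 6.78 ± 0.34 in wt mice (p = 0.0443, limma adjusted p = 0.785). Of 13 genes of heat production without UCP1, 8 were higher and 5 lower. The calcium release channel Ryr2 was 0.40 higher (SE 0.14, p = 0.00887) and the creatine transporter Slc6a8 1.26 lower (SE 0.47, p = 0.0144) on the log2 scale in cre mice, and both had a limma adjusted p of 0.77. Of 11 secreted regulators, 3 were higher and 8 lower, and of 6 genes of thyroid hormone handling 4 were higher and 2 lower, with 0 at an unadjusted p under 0.05 in either list.

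Relatives of the members were also compared. Ucp3, the uncoupling protein of muscle, was 0.23 higher in cre mice by mean (p = 0.536). Cidec and Cideb, the other CIDE proteins, were 0.42 (p = 0.0943) and 0.17 (p = 0.556) higher, and the other ELOVL enzymes divided into 3 higher and 3 lower. Of 13 further cytochrome c oxidase subunits, 4 were higher and 9 lower, and the common form Cox6a1 differed by -0.43 (SE 0.17, p = 0.0186, limma adjusted p = 0.77). All 12 mature adipocyte genes had a higher mean in cre mice, by a median of 0.33, with 0 at an unadjusted p under 0.05, but the list mean of the median mouse was 16.3 in cre and 16.4 in wt mice. The 2 wt mice lowest in these genes are named above. Sympathetic nerve genes, whose fibres carry the signal for heat production, were higher for 4 of 6, by a median of 0.09. Skeletal muscle genes were lower for 9 of 13, pancreatic genes for 7 of 8 and seminal vesicle and prostate genes for 8 of 10, with 0 at an unadjusted p under 0.05 in these 4 lists. The pancreatic mean was 6.87 in wt replicate 4, against at most 5.15 in cre mice, with medians of 5.05 in cre and 5.20 in wt mice. Of 6 epididymis genes 5 were higher, with Adam7 at an unadjusted p of 0.0386 (difference 0.44, limma adjusted p = 0.785). All 3 Schwann cell genes were higher, by a median of 0.12, and so were 7 of 10 bladder lining genes, among them Sprr1a (difference 0.62, p = 0.0464, limma adjusted p = 0.789), which was highest in cre replicate 2. By median mouse, the bladder lining mean was 4.87 in cre and 4.90 in wt mice.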

How the data were processed

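The values deposited by the authors were log2 signals of 22206 probe sets on 20 arrays. RMA, Transcriptome Analysis Console 4.0.2.15 and mm10 are named, per the submitters' processing notes; how background was set, what was filtered and whether batch was adjusted for is not given in the sources used here. RNA was labelled with a kit for whole transcripts, per the labels' protocols. Signals are not amounts of RNA, weak signals are compressed by background, and the number of arrays limits the precision.

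Genotype, batch and replicate number come from the sample titles, which call the mice biological replicates. The platform annotation gave gene names (19572 with 1 symbol, 0 with several, 2634 unnamed here), and all 19572 matched RefSeq by gene number. The probe set with the highest mean stood for a gene. The genotype test was limma 3.58.1 under R 4.3.3 (lmFit on genotype plus batch, then eBayes with no trend). P-values were adjusted after Benjamini and Hochberg over all probe sets, with calls at 0.05, and differences are log2 values of cre minus wt. The fit was tested on simulated data with known changes. Ranks within batches were tested by exact two-sided permutation of genotype over 63504 regroupings, which allow no p under 3.15e-05. Relations used values centred on genotype and batch, with 100000 permutations within these cells. Python 3.11.15, NumPy 2.4.6, SciPy 1.17.1, pandas 2.3.3 and matplotlib 3.10.9 were used.

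Named genes are the 10 members, Tnf, up to 3 genes per list with the smallest unadjusted p under 0.05, and the 5 genes most like Ucp1, Cox7a1 and Ppargc1a in rank correlation, leaving out predicted genes and clones. Genes outstanding in cre replicate 2 and other genes named beside them, Adipoq and the relatives of members were chosen after values were seen or as background. The members and lists were chosen with earlier results of these data known, and the bladder lining list was written after the values were seen. As alternatives, the batch term was dropped, batches were fitted alone, replicate numbers were used as a block, and the prior was trended and robust. Further ones were a filter on low probe sets, 2 further normalizations, array weights, 2 covariates, another fold and leaving out mice. Same-numbered mice had correlations of deviations between -0.30 and 0.34, and 4 of 10 were over 0.1, so the numbers were not taken to pair the mice.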

Additional observations from a re-analysis of the deposited data

Results flagged for a closer look

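In the groups of 10 mice, 4 values stood farther from their neighbours than Dixon's 95% critical value allows, among 20 groups tested; chance alone marks about 1 in 20 groups. In cre mice, the Ucp1 signal of replicate 2 was 12.2 with its nearest neighbour at 4.99, a gap of 0.832 of the range. The Cidea signal of the same mouse was 8.12, with the nearest at 6.79. In wt mice, the Cidea signal of replicate 5 was 4.72, with the nearest at 5.88, and this mouse had a mean of adipocyte genes of 14.7. Wt replicate 6, with the lowest such mean, 14.2, had Cidea at 5.91. The Elovl3 signal of wt replicate 4 was 6.36, with the nearest at 4.62, and this mouse had the highest mean of liver genes, 13.8.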

How the results depend on the processing

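No member passed adjustment under any of the alternatives run. The count of all probe sets past adjusted p 0.05, 1 in the reported comparison (1397 at an unadjusted p under 0.05), was 0 in batch 1 alone (1603 unadjusted), 0 in batch 2 alone (1001) and 0 with the replicate number as a block (1293), and 1 to 2 when each mouse was left out, with 2 without wt replicate 4. Members at an unadjusted p under 0.05 numbered 0 in each batch alone and 0 without wt replicates 5 and 6. Without cre replicate 2 and wt replicates 4 and 6 there was 1, but it was Elovl3 (0.54, unadjusted p = 0.024, adjusted p = 0.667) and not Ppargc1a (unadjusted p = 0.0576). They numbered 1 to 2 when each mouse was left out, Elovl3 joining without wt replicate 4. Members in the study's selection, 1 as reported, numbered 0 in each batch alone, with the adipocyte mean as a covariate, without wt replicates 5 and 6, and without cre replicate 2 and wt replicates 4 and 6, and 0 to 2 when each mouse was left out (0 without cre replicate 8, 2 without wt replicate 4). Of all probe sets, 232 met that selection as reported, 946 in batch 1, 568 in batch 2, 163 with the covariate, 168 without wt replicates 5 and 6, 492 without the 3 mice, 250 without cre replicate 8 and 451 without wt replicate 4. Fewer mice were tested in these subsets, and the causes of the other changes were not tested. Ppargc1a kept its direction in 33 of 33 alternatives, between 0.55 and 0.79, with an unadjusted p under 0.05 in 29 and a smallest adjusted p of 0.628; with the replicate block its unadjusted p was 0.00324 and adjusted p 0.83. The block changed no member's call. Directions reversed as follows. Ucp1 was -0.19 in batch 1 alone, -0.17 without the 3 mice cre replicate 2 and wt replicates 4 and 6, and -0.093 to 0.93 when each mouse was left out. Ppargc1b was -0.016 with array weights, -0.037 with the adipocyte covariate, -0.053 without those 3 mice, -0.044 without wt replicates 5 and 6, and -0.041 to 0.068 when each mouse was left out. Dio2 was 0.082 in batch 2 alone, Otop1 was -0.11 in batch 1 alone, and Cox7a1 was -0.030 without the 3 mice and -0.045 to 0.20 when each mouse was left out. Leaving out those 3 mice, or wt replicates 5 and 6, was chosen after seeing the data. The filter on low probe sets removed Ucp1, Dio2 and Elovl3. Since each member had 1 probe set, the alternative of averaging probe sets was not run. Low signals of Ucp1, Dio2 and Elovl3 lie close to background, so small differences in them could not be resolved.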
